A study of Mus musculus with 8 samples.

Results

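The nuclear genes for the subunits of the respiratory chain and ATP synthase were examined in EO771, a line of mouse breast cancer cells. Members were chosen by name, as the Nduf genes of families a, b, c, s and v, Sdha to Sdhd, and the genes whose symbols begin with Uqcr, Cox4 to Cox8 or Atp5, without the pseudogene names that carry "-ps". The genes described here are 89 of the 49997 in the count table, with 41 in complex I, 4 in complex II, 8 in complex III, 19 in complex IV and 17 in complex V. The names also took in 4 genes annotated as processed pseudogenes (Cox6c2, Ndufa11b, Ndufb4c and Ndufs6b) and Cox7a2l, known as a factor of respiratory supercomplexes.

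Total RNA of 8 libraries was sequenced, 2 for each of 4 groups. In the first experiment cells received 12-HETE, a lipid made from arachidonic acid by 12-lipoxygenase, at 100 nM for 48 h, or its vehicle (2% DMSO). In the second, cells were transduced with an empty vector or with a vector that overexpresses ADAR1 p150, the interferon-inducible isoform of an enzyme that edits adenosine to inosine in double-stranded RNA. The study describes an editing comparison of these groups as independent experiments, while the labels do not say whether the replicates were separate cultures or transductions, and the p-values measure the spread between these libraries. Adar, the overexpressed gene, had 2 and 8 counts (vector) against 181 and 140 (ADAR1 p150), a log2 difference of 4.68 (SE 0.32, adjusted p = 6.4e-14, edgeR).

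The respiratory chain passes electrons from NADH (complex I) and succinate (complex II) through complex III to oxygen at complex IV, and complex V uses the resulting proton gradient to make ATP. Complex II is built from nuclear genes alone, whereas the other complexes combine nuclear and mitochondrial gene products. Many nuclear subunit genes share promoter motifs for the factors NRF1, the ETS protein GABP and YY1.

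Library totals lay between 1101767 and 1537037 counts, highest in the 12-HETE group, of which a single gene, AY036118, took 44.4% to 50.3%. The 89 members together took 0.0532% to 0.0935% of a library, or 611 to 1437 counts. A count of 0 allowed a level of up to 1.95 to 2.72 CPM (counts divided by their library's total and scaled), taking 3 counts as the limit, which covers counting error only. The median member had a mean of 3.63 counts per library, 5 members had no count in any library and 52 had a count in every library. A minimum mean count of 10 left 23 members for testing, among 6901 genes. These were 10 in complex I, 1 in complex II, 0 in complex III, 5 in complex IV and 7 in complex V. A member near the minimum could reach it through the group in which it was high.

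Atp5b, the catalytic beta subunit of ATP synthase, held 23.3% of all member counts and 45.6% of those of complex V, with a mean of 219 counts per library. Complex V as a whole held 51.1% of the member counts, complex I 28.3%, complex IV 11.9%, complex II 5.33% and complex III 3.42%. Per kilobase of annotated exon the level of Atp5b was 39.4 CPM, against 24.0 for Cox7a1, the heart and muscle isoform of a small complex IV subunit, 23.6 for Atp5j, the coupling factor 6 subunit of ATP synthase, and 22.8 for Cox6a1, the liver-type isoform of its subunit. The median over the 88 members with an annotated length was 1.74 CPM per kilobase. Next below these genes came Atp5a1 (19.2) and 2 genes of complex I, Ndufa2 (14.9) and Ndufs8 (13.2). The Cox7a1 value rests on 8 to 26 counts per library over 535 exon bases. Sdha, the flavoprotein of succinate dehydrogenase, held 85% of the complex II counts, Uqcrc2, a core protein of complex III, 30.4% of those of its complex and Cox6a1 18.8% of complex IV. In complex I the counts were spread more evenly over the 41 members, with 9.12% on Ndufs1.

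Summed over its members in normalised CPM, each complex had its highest group mean with 12-HETE. The normalisation scaled library totals by 1.05 and 1.04 (vehicle) and by 0.94 and 0.88 (12-HETE). As a plain share of the total, all members took 0.0732% and 0.0814% (vehicle) against 0.0935% and 0.0727% (12-HETE). In that measure the 12-HETE libraries stood on both sides of the vehicle pair. Complex I summed to 193 and 213 normalised CPM (vehicle), 243 and 232 (12-HETE), 159 and 185 (vector), and 200 and 201 (ADAR1 p150). In normalised CPM the 12-HETE libraries lay above the other 6, and the ADAR1 p150 libraries above the vector libraries. Complex I here includes Ndufa4 by its name, a gene now placed in complex IV. Without Ndufa4, 12-HETE replicate 5 would not lie above vehicle replicate 5 in this sum. In plain CPM 12-HETE replicate 5 (313 of 1530304 counts) lay below vehicle replicate 5 (265 of 1201351). Most of the difference between the 12-HETE and vehicle means (238 and 203) lay in Ndufs1 (26.1 against 8.56) and Ndufa4 (19.8 against 5.76). Ndufs1 shares exon bases with Ino80dos, an opposite-strand gene that also rose, and the part of shared reads was not tested. With ADAR1 p150 Ndufs1 had a mean of 27.3 against 9.93 (vector), beside complex sums of 200 and 172. Complex II summed to 26.6 and 47.5 (vehicle) and 71.9 and 57.2 (12-HETE), a ratio of means of 1.74, and its vector and ADAR1 p150 libraries lay between 20.5 and 27.3. Complex V summed to 371 and 402 (vehicle), 526 and 411 (12-HETE), 252 and 327 (vector), and 346 and 289 (ADAR1 p150). Over all 89 members the sums were 741 ± 64.4 (vehicle), 910 ± 118 (12-HETE), 590 ± 69.9 (vector) and 626 ± 73.6 (ADAR1 p150) normalised CPM (SD, n = 2). These sums were not tested. Atp5b alone makes up much of the complex V sum, and fewer cells with a transcript and less transcript per cell cannot be told apart in such libraries.

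**Figure D1:**
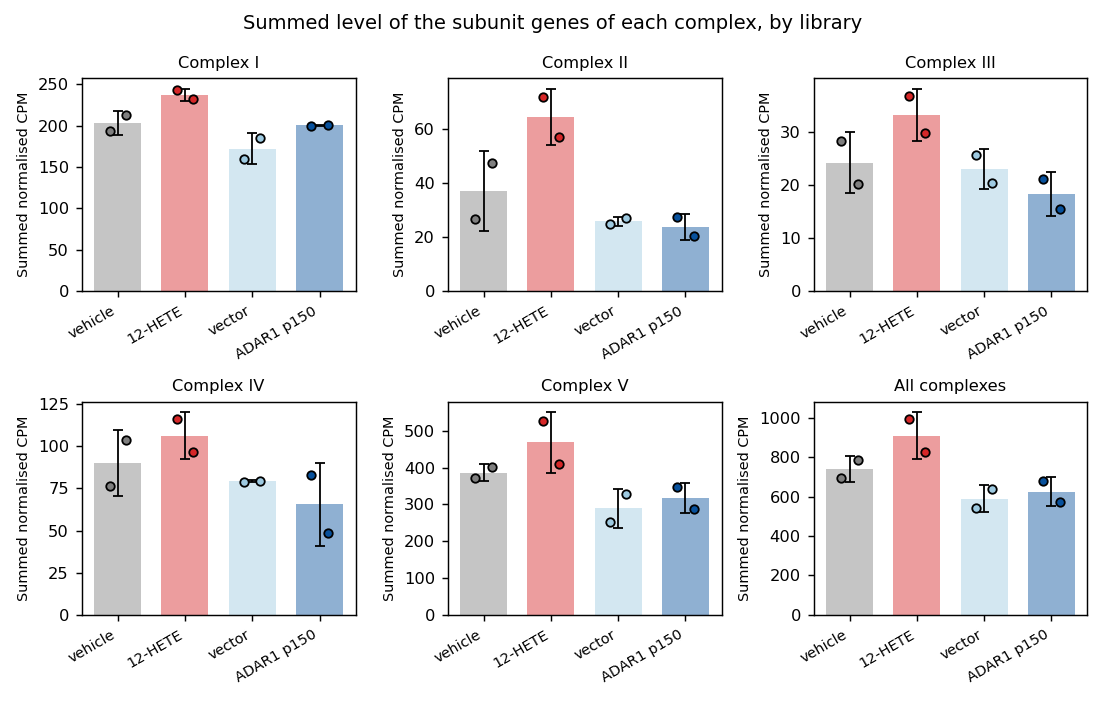
Summed normalised CPM of the subunit genes of each complex on the vertical axis, for the 4 groups on the horizontal axis, and of all complexes together in the last panel. Bars are means of 2 libraries, error bars 1 SD and points single libraries. The 12-HETE points of complex I (243 and 232) lie above all others, whereas those of complex IV overlap the vehicle points. Ndufa4, now placed in complex IV, is counted in complex I by its name, and the separation of complex I depends on it.

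The promoter windows of the members that passed a test described here are given first, because the same 3 motifs are known from subunit promoters. Windows of 250 bases before to 50 after the start site were taken from RefSeq (GRCm38.p6), and 70 of the 89 members had one. GCGCANGCG, the NRF1 motif, occurred on either strand in 19 of these 70 windows (27.1%), against 6.25% of all 32851 windows. CCGGAAG, the ETS motif, occurred in 16 (22.9%) against 8.86%, and AAGATGGCG, the YY1 motif, in 6 (8.57%) against 1.40%. Members were counted with 1 window each. The background took every window, without reduction to 1 per gene or to genes of a like type. At least 1 of the 3 motifs was found in 34 members' windows, and the motifs as spelled do not contain one another, although a run such as the NRF1 motif can match on both strands at once. The windows are printed 5′ to 3′ on the gene's strand, with matches in capitals.
Sdha (chr13:74350191-74350490, strand -): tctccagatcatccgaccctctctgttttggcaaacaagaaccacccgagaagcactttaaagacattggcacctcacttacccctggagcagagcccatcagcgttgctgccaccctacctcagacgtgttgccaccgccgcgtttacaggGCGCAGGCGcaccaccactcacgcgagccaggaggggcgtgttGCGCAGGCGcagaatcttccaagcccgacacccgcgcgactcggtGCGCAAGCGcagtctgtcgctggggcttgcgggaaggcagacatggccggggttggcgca
Atp5g3 (chr2:73911277-73911576, strand -): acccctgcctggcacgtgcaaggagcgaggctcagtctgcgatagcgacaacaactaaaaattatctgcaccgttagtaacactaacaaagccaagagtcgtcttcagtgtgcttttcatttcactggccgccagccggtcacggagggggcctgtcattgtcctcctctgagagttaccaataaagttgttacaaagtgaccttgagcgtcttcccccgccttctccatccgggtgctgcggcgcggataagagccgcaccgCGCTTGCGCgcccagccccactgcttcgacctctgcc
Ndufs8 (chr19:3912725-3913024, strand -): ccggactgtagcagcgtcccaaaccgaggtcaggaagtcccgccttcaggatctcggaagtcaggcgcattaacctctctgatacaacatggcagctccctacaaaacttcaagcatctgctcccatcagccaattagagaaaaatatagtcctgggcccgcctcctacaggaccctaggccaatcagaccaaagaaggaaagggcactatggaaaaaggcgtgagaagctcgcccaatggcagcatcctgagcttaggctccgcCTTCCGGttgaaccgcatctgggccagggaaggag
Ndufa4 (chr6:11907401-11907700, strand -): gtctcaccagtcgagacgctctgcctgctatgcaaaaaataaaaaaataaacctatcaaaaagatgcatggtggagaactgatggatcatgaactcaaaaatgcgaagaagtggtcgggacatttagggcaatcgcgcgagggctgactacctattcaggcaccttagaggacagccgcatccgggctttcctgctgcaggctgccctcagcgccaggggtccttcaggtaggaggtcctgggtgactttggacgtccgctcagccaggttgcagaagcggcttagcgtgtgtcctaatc
Cox7a1 (chr7:30183921-30184220, strand +): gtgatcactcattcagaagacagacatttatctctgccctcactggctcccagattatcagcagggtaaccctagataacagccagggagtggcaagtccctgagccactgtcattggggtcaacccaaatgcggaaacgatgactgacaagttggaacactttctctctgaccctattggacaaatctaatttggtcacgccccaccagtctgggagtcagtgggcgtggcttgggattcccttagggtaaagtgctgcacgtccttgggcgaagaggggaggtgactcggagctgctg

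Sdha carried 3 NRF1 matches within 98 bases before its start site, Atp5g3 held 1 NRF1 match after the start, read on the reverse strand, and Ndufs8 had 1 ETS match, also reversed. Ndufa4 and Cox7a1 held none of the 3 motifs in these windows. A match is a run of letters and not a bound site. Ndufs1 and Ndufa4l2 also passed a test, and no window was printed for them.

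With 12-HETE, 3 members rose (Ndufa4, Ndufs1 and Sdha) and 1 fell (Ndufs8), 3 of these 4 in complex I by name. Passing means an adjusted p under 0.05 in edgeR's quasi-likelihood test over all 6901 genes. Over all genes 15.1% were called higher and 14.2% lower, so 4 of 23 members (17.4%) were not a larger share than the background. The study's further demand of a 2-fold change left 3 members (Ndufa4, Ndufs1 and Ndufs8), beside 14.4% of all genes. DESeq2 called 1 member (Ndufs1), and the edgeR count was 2 without vehicle replicate 4 and 3 to 5 without any 1 of the other 3 libraries of the contrast. The fitted median over the 23 members was 0.28 on the log2 scale, against 0.0044 over all genes, and 18 members had a positive and 5 a negative value. That median was 0.16 without 12-HETE replicate 4 and 0.15 over the 7 members with 10 counts in every library.

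Ndufs1, the largest subunit of complex I and the carrier of several of its iron-sulphur clusters, had 9 and 12 counts (vehicle) against 39 and 34 (12-HETE). The log2 fold change was 1.60 (SE 0.35, adjusted p = 0.000597, edgeR). Ndufa4, counted here with complex I by its name but now placed in complex IV, had 10 and 4 counts (vehicle) against 24 and 31 (12-HETE). Its log2 change was 1.77 (SE 0.43, adjusted p = 0.0017, edgeR). Over both experiments its control libraries held 4 to 10 counts and its treated libraries 16 to 31. Ndufa4 thus reached the minimum mean count through the treated groups. Without vehicle replicate 5, its lower control, the Ndufa4 change was 1.17 (adjusted p = 0.0877).

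Ndufs8, an iron-sulphur subunit of complex I, had 30 and 22 counts (vehicle) against 15 and 12 (12-HETE). It fell by 1.13 on the log2 scale (SE 0.35, adjusted p = 0.0137), and by 0.87 without vehicle replicate 4 (adjusted p = 0.173) and 1.03 without 12-HETE replicate 5 (adjusted p = 0.0857). Ndufs8 thus moved against Ndufs1, which is also a core subunit of complex I.

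In complex II, Sdha had 28 and 53 counts (vehicle) against 88 and 62 (12-HETE), a log2 change of 0.70 (SE 0.24, adjusted p = 0.0283). The vehicle libraries differed widely, and the value was 0.33 without vehicle replicate 4 (adjusted p = 0.428), 1.13 without vehicle replicate 5 and 0.48 without 12-HETE replicate 4 (adjusted p = 0.308). Sdhb, the iron-sulphur subunit, had 1 and 0 counts (vehicle) against 3 and 4 (12-HETE). The membrane anchors Sdhc, with 1 and 4 against 7 and 6 counts, and Sdhd, with 2 and 2 against 6 and 5, were likewise too low to test. In normalised CPM both 12-HETE libraries also lay above both vehicle libraries for these 3 genes, at a depth where few reads separate the groups. The same held for 18.2% of the 2292 genes with means in their range (1.75 to 3 counts).

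No complex III member reached the minimum count, and the nearest, Uqcrc2, had 10 and 7 counts (vehicle), 18 and 15 (12-HETE), 8 and 8 (vector), and 7 and 5 (ADAR1 p150). Of the members named for complex IV, which leave out Ndufa4, 0 of 5 passed with 12-HETE in edgeR, 0 had an unadjusted p under 0.05 and DESeq2 called 0. Cox4i1, the general isoform of subunit 4, had 14 and 26 counts with vehicle against 24 and 25 (log2 change 0.10, 95% interval -0.64 to 0.85), and its other isoform Cox4i2 had 14 and 14 against 21 and 14 (0.13, -0.63 to 0.89). Cox6a1 had 22 and 40 against 35 and 23 counts (-0.29, -1.01 to 0.44).

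All 7 tested members of complex V had positive values with 12-HETE, and 0 passed in edgeR or DESeq2, with 1 at an unadjusted p under 0.05 in edgeR. Atp5b had 230 and 249 counts (vehicle) against 374 and 243 (12-HETE), a log2 value of 0.17 (95% interval -0.17 to 0.51). The 2 libraries of 12-HETE stood on both sides of the vehicle pair after normalisation (259 and 180 against 191 and 200 CPM). Atp5g3, which encodes the membrane ring subunit c, had 1 and 11 counts (vehicle) against 15 and 18 (12-HETE), a log2 value of 1.26 (SE 0.57, adjusted p = 0.0958) that was 3.62 (adjusted p = 0.00508) without vehicle replicate 5.

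**Figure D2:**
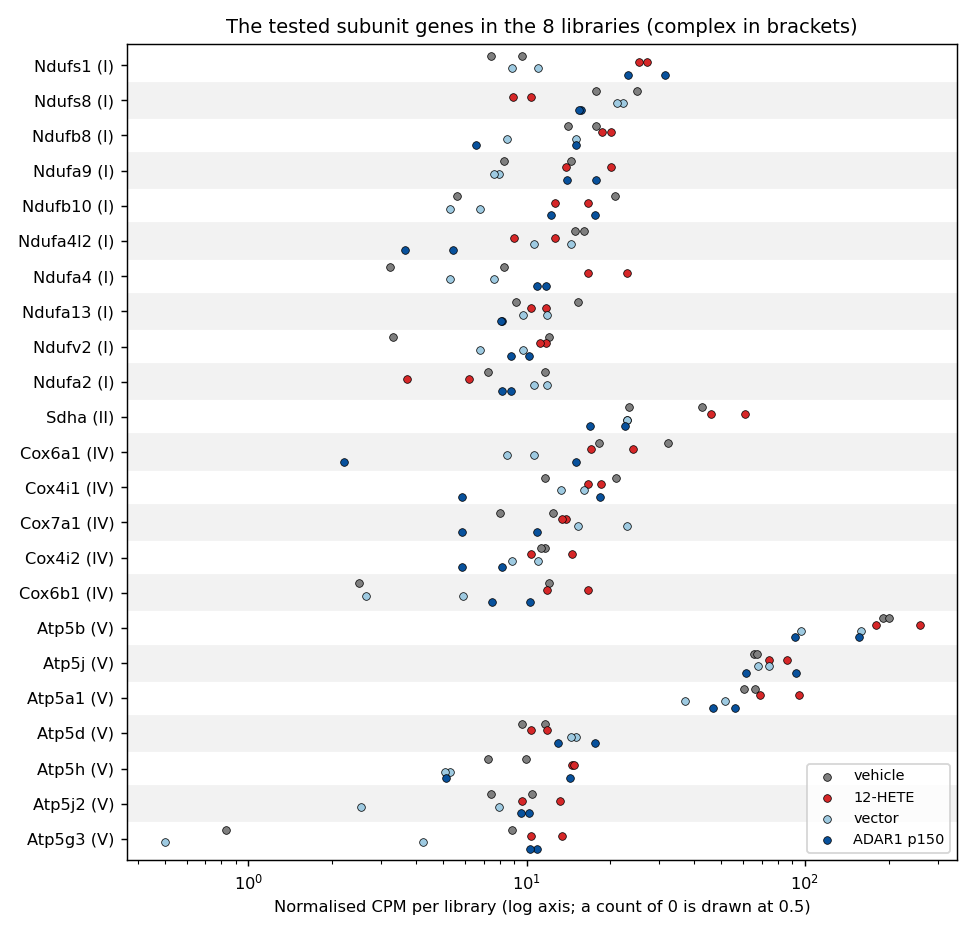
Normalised CPM of the 23 tested members in single libraries, on a logarithmic horizontal axis, with 1 row per gene, ordered by complex and level. Colours mark the groups. Atp5b, Atp5j and Atp5a1 lie to the right of the other members in every library, and the 12-HETE and ADAR1 p150 points of Ndufs1 (23.2 to 31.5 CPM) lie apart from its controls (7.47 to 11.0 CPM).

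With ADAR1 p150, Ndufs1 and Atp5g3 rose, the latter a gene that reached the minimum count through the treated groups, and Ndufa4l2 and Cox7a1 fell. Among all genes 14.5% were called higher and 11.1% lower, and 4 of 23 members (17.4%) was again no larger a share. All 4 also met the 2-fold demand, beside 12.8% of all genes. DESeq2 called 0, with 3 at an unadjusted p under 0.05, and the edgeR count was 2 without vector replicate 1 or ADAR1 p150 replicate 2 and 3 without either of the other libraries of this contrast. Values above and below 0 were nearly balanced, with 12 and 11, and the median of 0.047 lay beside 0.066 over all genes. Without ADAR1 p150 replicate 2, which held 3 counts of Cox6a1 against 22 in its partner, that median was 0.32.

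Ndufs1 had 10 and 13 counts (vector) against 34 and 43 (ADAR1 p150), a log2 change of 1.44 (SE 0.34, adjusted p = 0.00161, edgeR). It passed in the same direction in both experiments, which do not share libraries, and in each fit that left out 1 library of the contrast. The adjusted p of DESeq2 was 0.0229 in the first experiment and 0.0528 in the second. The difference between both effects on Ndufs1 did not pass.

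The effects of 12-HETE and ADAR1 p150 were also compared with each other. Of the 23 members 0 passed for this difference in edgeR, where 15% of all genes did, with 2 at an unadjusted p under 0.05 (Cox7a1 and Sdha), and DESeq2 called 0, with 0 unadjusted. Cox7a1 had 15 and 10 counts (vehicle) against 20 and 18 (12-HETE), a value of 0.41 (SE 0.40), and its effects differed by 1.57 on the log2 scale (SE 0.56, adjusted p = 0.0546). Those of Sdha differed by 0.91 (SE 0.40, adjusted p = 0.125). Cox7a1 passed without vector replicate 2 or ADAR1 p150 replicate 1, and Sdha and Ndufb10 did without vehicle replicate 5.

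Ndufa4l2, a hypoxia-inducible relative of Ndufa4, had 12 and 17 counts (vector) against 8 and 5 (ADAR1 p150). It fell by 1.43 (SE 0.47, adjusted p = 0.0218), and by 1.19 without vector replicate 2 (adjusted p = 0.18) or ADAR1 p150 replicate 2 (adjusted p = 0.129). Ndufa4 itself had 6 and 9 counts against 16 and 16, a log2 value of 0.79 (95% interval -0.12 to 1.71). With 12-HETE, Ndufa4l2 had 18 and 20 counts against 13 and 17, a value of -0.53 (-1.27 to 0.22).

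In complex IV, Cox7a1 had 26 and 18 counts (vector) against 16 and 8 (ADAR1 p150), and fell by 1.16 (SE 0.39, adjusted p = 0.0263). The fall was 0.84 without vector replicate 1 (adjusted p = 0.27) and 0.80 without ADAR1 p150 replicate 2 (adjusted p = 0.216). Its sister isoforms were too low to test, Cox7a2 with 1 and 1 against 2 and 1 counts and Cox7a2l with 3 and 2 against 4 and 1. Cox4i1 (15 and 19 against 27 and 8) and Cox6a1 (12 and 10 against 22 and 3) overlapped between the groups and did not pass. Cox4i2 (10 and 13 against 12 and 8) did not pass either, although in normalised CPM its ADAR1 p150 libraries (8.18 and 5.86) lay below its vector libraries (8.85 and 11.0).

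In complex V, Atp5g3 had 0 and 5 counts (vector) against 16 and 14 (ADAR1 p150), a log2 change of 2.24 (SE 0.71, adjusted p = 0.0169). Its mean over the 8 libraries was exactly the minimum of 10 counts, which it reached through the treated groups (14 to 18 counts, against 0 to 11 in the controls). The size of this change depended on the vector library at 0, and without vector replicate 1 it was 1.30 (adjusted p = 0.206). Without vector replicate 2 the only vector library left was at 0, so no fold is given. Leaving out either ADAR1 p150 library also ended the call (adjusted p = 0.0704 and 0.0512), with changes of 2.20 and 2.29. The other genes for subunit c had few counts, Atp5g1 between 1 and 6 and Atp5g2 between 0 and 4 per library. Atp5b had 109 and 188 counts (vector) against 229 and 126 (ADAR1 p150), a value of -0.04 (95% interval -0.42 to 0.34).

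**Figure D3:**
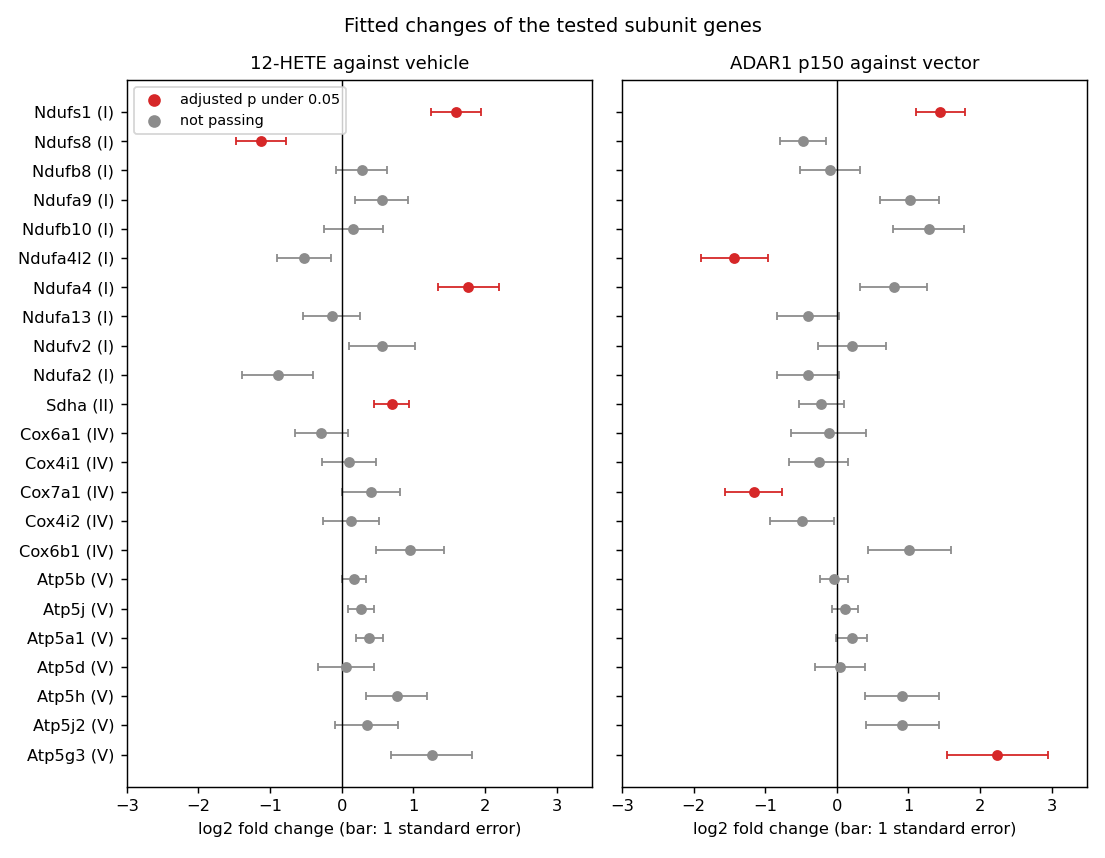
Log2 fold changes of the 23 tested members on the horizontal axis, with 12-HETE against vehicle in the left panel and ADAR1 p150 against vector in the right, and bars of 1 standard error. Red points passed at an adjusted p under 0.05. Ndufs1 is red on the right of 0 in both panels (1.60 and 1.44).

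Several isoforms with known tissue limits were at or near the lower end. Cox6a2, the muscle isoform of Cox6a1, had 0 counts in all 8 libraries. Cox6b1 had 3 and 15, 24 and 16, 3 and 7, and 11 and 14 counts with vehicle, 12-HETE, vector and ADAR1 p150, whereas Cox6b2, its testis isoform, had at most 4 in any library. Without vehicle replicate 5 the Cox6b1 change with 12-HETE was 2.41 and passed, and with all libraries it was 0.95 and did not. Cox8a, the general isoform of subunit 8, had 2 to 6 counts per library, and Cox8b, the heart and muscle isoform, 1 to 8. These pairs were not ranked, since counts were low and the genes differ in length.

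The controls of both experiments were also set side by side. Between vector and vehicle 0 of 23 members passed in edgeR, with 5 at an unadjusted p under 0.05, and 0 did in DESeq2, where 0 were under 0.05 unadjusted. Over all genes 0.116% were called. The median over the members was -0.31, against -0.0083 over all genes, with 15 of 23 values negative, so that the controls differed in this median by about as much as 12-HETE and vehicle did. Without vehicle replicate 5 it was -0.066. The lowest values belonged to Cox6a1 (-1.40, SE 0.44, adjusted p = 0.217) and, among the abundant members, Atp5b (-0.61, SE 0.19, adjusted p = 0.205), which passed without vector replicate 2. Transduction and any other difference between the experiments cannot be told apart here.

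Many subunit genes lie back to back with a gene on the opposite strand. Of 88 members found in the GENCODE M21 annotation (GRCm38), 26 (29.6%) shared exon bases with an opposite-strand gene of the table, against 13.7% of all annotated genes. In 20 of the 27 pairs the partner had more counts than the subunit gene, in 6 fewer, and 1 pair was at 0 (counts, not levels per length). The methods name a directional kit and the sample labels another, and whether counting kept strands apart is not given in the sources used here. Reads of the overlapping stretch therefore cannot be assigned to 1 gene with certainty. The pairs below were named after their values were seen.

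Ndufs1 (chr1:63143596-63176833, minus strand) shared 489 exon bases, 6.0% of its own, with Ino80dos. This long non-coding RNA gene averaged 336 counts against 24.3 for Ndufs1, and itself rose by 0.99 with 12-HETE (SE 0.12, adjusted p = 3.48e-08) and 0.49 with ADAR1 p150 (SE 0.12, adjusted p = 0.00217). Ndufs1 and its partner thus moved the same way in both experiments, and the part of shared reads in the Ndufs1 result was not tested. Ndufs1 also shared 9 bases with Eef1b2, which did not pass in either.

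Ndufa4l2 shared 32 bases with Shmt2, a serine and glycine enzyme of the mitochondrion, and Shmt2 fell with ADAR1 p150 as well (-1.33, SE 0.47, adjusted p = 0.0361). The part of these shared bases in the Ndufa4l2 fall was not tested. Sdha, Ndufs8, Ndufa4, Cox7a1 and Atp5g3 had no such partner.

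Ndufa9, a complex I subunit with a mean of 17.3 counts, faced 1700018A23Rik with 660, which rose by 0.92 with 12-HETE and 0.46 with ADAR1 p150. Ndufa9 had values of 0.56 (adjusted p = 0.277) and 1.02 (adjusted p = 0.0666). Uqcrc2, with 9.75 counts, faced Pdzd9 with 390, and Atp5d, the delta subunit of ATP synthase, with 16.8 faced Cbarp with 196. Atp5j, with 96.1 counts, shared 397 exon bases with Gabpa, the DNA-binding chain of GABP, with 194 counts. Gabpa rose by 0.94 with 12-HETE (SE 0.14, adjusted p = 1.08e-06), while Atp5j had 79 and 84 counts (vehicle) against 125 and 100 (12-HETE), a value of 0.27 (95% interval -0.09 to 0.63).

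**Figure D4:**
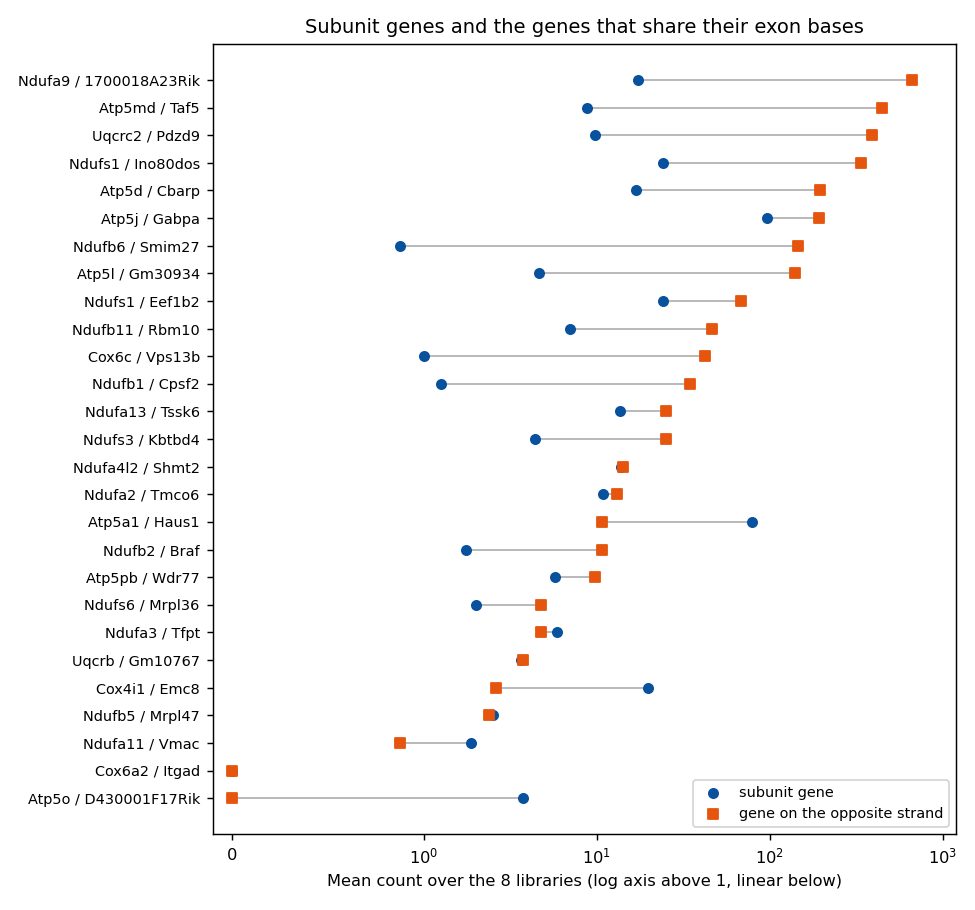
Mean counts over the 8 libraries on the horizontal axis (logarithmic above 1 and linear below), for each of 27 pairs of a subunit gene (circle) and the gene that shares its exon bases on the opposite strand (square). Squares lie to the right of circles in 20 pairs, most widely on this axis for Ndufb6, Atp5md and Cox6c, whereas Atp5a1 and Cox4i1 lie to the right of their partners.

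Of 47 assembly factors of the chain 10 could be tested, and single ones were abundant, such as Ttc19 of complex III with a mean of 1239.8 counts and Cox20 of complex IV with 292. Their sum lay between 1298 and 1575 normalised CPM in every library, above that of the 89 subunit genes (541 to 994). That sum rests largely on Ttc19, which alone had 1083 to 1436 counts per library, beside 611 to 1437 for the 89 subunit genes. With 12-HETE the complex IV factors Surf1 (0.91, SE 0.19, adjusted p = 0.000358) and Coa6 (1.32, SE 0.43, adjusted p = 0.0171) rose, and the complex I factor Ecsit fell (-1.68, SE 0.28, adjusted p = 1.46e-05). With ADAR1 p150 Cox20 (0.77, SE 0.13, adjusted p = 1.32e-05) and the complex V factor Atpaf2 (0.82, SE 0.30, adjusted p = 0.0402) rose, and Ecsit fell again (-0.71, SE 0.27, adjusted p = 0.0486). In each experiment 2 of the 10 tested factors thus rose and 1 fell. Among all genes 15.1% were called higher and 14.2% lower with 12-HETE, and 14.5% and 11.1% with ADAR1 p150. The list was not tested against these shares.

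Among 13 regulators of mitochondrial biogenesis, 5 were tested. Gabpa and the nuclear receptor Esrra (0.43, SE 0.16, adjusted p = 0.0335) rose with 12-HETE, and Gabpb1, the partner chain of Gabpa, rose with ADAR1 p150 (0.63, SE 0.15, adjusted p = 0.00129). Ppargc1a, the best known coactivator of the programme, averaged 0.375 counts and Nrf1 6.88, and neither was tested. Of the citric acid cycle genes 9 of 17 were tested, and with 12-HETE citrate synthase Cs (1.08, SE 0.28, adjusted p = 0.00332) and Ogdh of the oxoglutarate dehydrogenase complex (1.18, SE 0.37, adjusted p = 0.0144) rose and Pdhb of pyruvate dehydrogenase fell (-1.75, SE 0.51, adjusted p = 0.00889). With ADAR1 p150 no citric acid cycle gene passed, the lowest adjusted p being 0.081 (Pdha1). With 12-HETE 2 of 5 regulators rose, and of 9 citric acid cycle genes 2 rose and 1 fell. These calls stand beside 15.1% of all genes called higher and 14.2% lower with 12-HETE. With ADAR1 p150 1 of 5 regulators rose, beside 14.5% of all genes. The lists were not tested against these shares. Of the subunit genes that the name rule left out, Ndufab1 and cytochrome c (Cycs) were tested and passed in neither experiment.

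Of the 13 subunit genes encoded in the mitochondrial genome 8 were tested, and 3 fell with 12-HETE and 4 with ADAR1 p150, which were all that passed, beside 14.2% and 11.1% of all genes called lower. ND1 of complex I fell by 0.89 (SE 0.15, adjusted p = 2.1e-05) with 12-HETE and 1.52 (SE 0.17, adjusted p = 1.88e-08) with ADAR1 p150, and CYTB of complex III by 0.90 and 0.80. The summed level of the 13 genes ranged from 4368 to 6289 normalised CPM (vehicle), 3040 to 5259 (12-HETE), 4389 to 4469 (vector) and 3528 to 4455 (ADAR1 p150), so that the groups overlapped in both experiments.

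As to cell identity, 4 of 7 epithelial markers were tested. Krt8 and Krt18 averaged 96.4 and 94.4 counts, whereas Epcam averaged 2.13 and Cdh1 had 0 counts in every library. Krt18 fell with 12-HETE (-0.61, adjusted p = 0.0121) and with ADAR1 p150 (-0.88, adjusted p = 0.00198). With ADAR1 p150 Krt8, Krt19 and the mesenchymal marker Fn1 rose (0.59, 0.60 and 0.55). The summed epithelial level ranged from 240 to 306 normalised CPM (vehicle), 235 to 245 (12-HETE), 180 to 213 (vector) and 172 to 244 (ADAR1 p150), and their part in the subunit results was not tested. The 5 mesenchymal markers, of which Col1a2 was at 0, summed to 378 to 474, 398 to 454, 274 to 308 and 367 to 479 in the same order. The 6 leukocyte markers summed to at most 1.47 and the 3 endothelial markers to at most 8.30 normalised CPM in any library.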

How the data were processed

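RNA-seq libraries of EO771 cells were analysed from a table of raw gene counts deposited by the authors (49997 genes, 8 libraries). According to the methods, the editing analysis used FastQC, removal of duplicates with prinseq, and alignment to GRCm38 with STAR. For expression the methods refer back to a general process with STAR and featureCounts. Whether duplicates were removed before these counts were made is not stated. The labels name the groups and another library kit. Here edgeR 4.0.16 (R 4.3.3) fitted a coefficient per group to all 8 libraries with TMM factors, over the 6901 genes that averaged 10 counts or more. P-values were adjusted by Benjamini-Hochberg over these genes, with passing at 0.05. The SE is the log2 change divided by the square root of F. Normalised CPM use TMM-scaled totals. DESeq2 1.42.0 was an alternative. Exon overlaps came from GENCODE M21 and promoters from RefSeq. Of the genes that the name rule takes, 1 is not reported here. Genes were named by a rule: the top gene of each complex, members that passed, the Sdh genes and isoform families. The members, lists and tests were chosen with earlier results of these data known. Same-numbered libraries correlated at -0.08 and -0.11 (deviations from group means), so numbers were not taken to pair samples. Replicates differed by more than counting noise (mean chi-square per gene 1.40 to 1.71).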

Additional observations from a re-analysis of the deposited data

How the results depend on the processing

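Depth limited most members, since 23 of 89 reached the minimum count and most of these averaged about 10 to 20 counts. A minimum of 10 counts in every library removed all 4 members passing with ADAR1 p150 before testing, so it could not retain those calls. Of those passing with 12-HETE it removed Ndufs1 and Ndufa4, and Ndufs8 and Sdha still passed. Of members passing with 12-HETE (4), DESeq2 called 1, a minimum of 10 counts in every library left 2 of 7 tested, no minimum gave 3, the 2-fold demand 3, and leaving out 1 library 2 to 5. Of those passing with ADAR1 p150 (4), DESeq2 called 0 (3 at an unadjusted p under 0.05), 10 counts in every library gave 0 in edgeR (0 unadjusted), the 2-fold demand 4, and leaving out 1 library 2 (without vector replicate 1 or ADAR1 p150 replicate 2) or 3. For the difference between the effects (0), RLE factors gave 1 (Cox7a1) and leaving out 1 library 0 to 2 (2 without vehicle replicate 5). Vector against vehicle gave 0 or 1 with 1 library left out (Atp5b without vector replicate 2). With 1 library left out, the median ranged from 0.16 to 0.38 with 12-HETE (0.16 without 12-HETE replicate 4), from -0.018 to 0.32 with ADAR1 p150 (0.32 without ADAR1 p150 replicate 2) and from -0.49 to -0.066 between vector and vehicle (-0.066 without vehicle replicate 5). The DESeq2 adjusted p of calls lost there was 0.125 for Ndufs8, 0.056 for Ndufa4, 0.263 for Sdha, 0.0528 for Ndufs1 with ADAR1 p150, 0.146 for Ndufa4l2 and 0.176 for Cox7a1, and DESeq2 gave none for Atp5g3 with ADAR1 p150. The Sdha call with 12-HETE was also lost with no minimum (adjusted p = 0.0837). The sign changed with 1 library left out for values that had not passed. With 12-HETE these ranged from -0.25 to 0.52 for Cox4i1, -0.14 to 0.34 for Cox4i2, -0.63 to 0.11 for Cox6a1 and -0.12 to 0.40 for Atp5b. With ADAR1 p150 they ranged from -1.31 to 0.32 for Cox4i1, -2.07 to 0.65 for Cox6a1 and -0.47 to 0.37 for Atp5b. With the replicate block 4, 5 and 0 members passed for 12-HETE, ADAR1 p150 and the difference, with Ndufb10 added for ADAR1 p150 (edgeR, 2 unadjusted for the difference). Pairing the ADAR1 p150 libraries crosswise, an alternative chosen after seeing the data, gave 6 and, for the difference, 1. The causes of these changes were not tested.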
